A study of Mus musculus with 6 samples.

Results

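The 42 genes described here act in S phase, the part of the cell cycle in which DNA is copied. They are a set listed by gene name, and all 42 were found among the 31053 genes of each of 6 single-cell libraries. Mouse embryonic stem cells carrying HB9::GFP, a fluorescent reporter driven by a motor neuron promoter, had been turned toward motor neurons as embryoid bodies and were sampled on day 6. WT was wild type at the lncMN2 locus, a long noncoding RNA gene. The KO genotype was lncMN2-/- and the DeltaSP genotype lncMN2_SP-/-, both made with CRISPR/Cas9. Each genotype had 2 clones with 1 library each, so clone, library preparation and genotype are not separated within a library, and p-values measure the spread between these libraries.

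Before S phase, the licensing factors Cdc6 and Cdt1 place the ring of Mcm2 to Mcm7 on DNA, and Gmnn (geminin) blocks a second loading. Cdc45 and the GINS complex then complete the working helicase, the polymerase alpha complex makes primers, and Pcna, the sliding clamp loaded by replication factor C, holds the polymerases on the template. In the developing neural tube, progenitors cycle and neurons leave the cycle, so the transcripts of these genes are usually a property of progenitors. Many of the genes are known targets of E2F transcription factors.

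The DNA before the genes can be searched for short words of the type that E2F factors are known to bind, shown here because they group members by sequence and not by level. RefSeq promoters (GRCm38.p6, 250 bases before to 50 after a start site) were matched for 32 of the 42 members and searched on both strands for the E2F-type words TTTCCCGC, TTTCGCGC, TTTGCCGC and TTTGGCGC, which can overlap. At least 1 word stood in 14 of the 32 (43.8%), and in 704 of all 27025 genes in the table (2.61%). In 6 of the 14, shown as 40 bases of the gene's strand lying wholly before the start site to which the promoter belongs, the capitals mark the word, or overlapping words, on either strand.
Cdc6 (chr11:98907997-98908036, plus strand): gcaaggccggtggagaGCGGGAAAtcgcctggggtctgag
Uhrf1 (chr17:56304112-56304151, plus strand): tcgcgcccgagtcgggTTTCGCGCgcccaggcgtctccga
Hells (chr19:38930912-38930951, plus strand): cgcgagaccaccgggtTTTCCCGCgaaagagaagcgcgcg
Mcm5 (chr8:75109340-75109379, plus strand): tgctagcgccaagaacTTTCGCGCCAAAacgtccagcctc
Mcm6 (chr1:128359792-128359831, minus strand): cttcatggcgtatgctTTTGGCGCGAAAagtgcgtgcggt
Mcm7 (chr5:138172025-138172064, minus strand): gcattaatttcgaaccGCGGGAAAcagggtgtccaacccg
These 6 were picked because 4 are helicase genes or loaders that share an E2F-type word and the other pair are chromatin genes, of which Uhrf1 rose and Hells had the lowest value of all members in the comparison of KO with WT given further on. The choice was thus made by level as well as by sequence. The plan had been to show the member of smallest p in KO against WT in each of 6 role groups. Of those, Cdc6 and Uhrf1 held an E2F-type word, and Pcna, Rrm2, Ung and Ccne1 held none. A gene can have other start sites, and for Cdc6, Uhrf1, Hells and Mcm7 the bases shown lie inside the gene's full span in RefSeq. In Mcm5 and Mcm6 a pair of words overlaps into 1 run of 12 bases that reads as a word from either strand. The CCAAT box (CCAAT) stood in 22 of the 32 matched members (68.8%) and in 41.1% of all genes. TTTGAA or TTCGAA, the core of the element bound at G2 and M phase promoters, stood in 7 of the 32 (21.9%), beside 21.7% of all genes. A match is a description of letters and not of binding. Only these exact words within the window were searched, so the lack of a word is not the lack of an E2F site.

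The 6 libraries held 24215 barcodes, and 16225 cells were kept, those in which 1000 or more genes were detected and mitochondrial genes took no more than 10% of the UMIs (unique molecular identifiers, 1 per captured molecule). Library totals ran from 24191242 to 49061693 UMIs. WT 1 stands apart: its median kept cell held 4157 UMIs, and those of the other 5 libraries 11898.5 to 15112, so the main results that rest on it are also given without it. Kept cells of more than 1 library shared 38 barcode sequences. The targeted transcript, annotated 5330434G04Rik, had 661 and 907 UMIs in WT, 841 and 1066 in DeltaSP, and 4 and 6 in KO. Scaled by the library total, it stood at 32.5 and 33.5 CPM in WT, 23.4 and 22.2 in DeltaSP, and 0.133 and 0.191 in KO. By this scale both DeltaSP libraries lay below both WT libraries. Markers of neural progenitors (Sox2 at 100.5 to 222 CPM over the libraries), motor neuron progenitors and motor neurons were present, and 6 pluripotency genes summed to 0.612 to 12.1 CPM.

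Summed over all kept cells of a library, the 42 genes together made up 2188 and 2501 plain CPM (UMIs scaled by the library total alone) in WT, 3122 and 3568 in DeltaSP, and 3768 and 4292 in KO. The order of the genotypes was WT, DeltaSP, KO, and no library overlapped with one of another genotype. KO against WT asked how the genes differ where the targeted transcript is nearly absent. Of the 42 members, 13 rose and 0 fell in KO by edgeR's quasi-likelihood test at a Benjamini-Hochberg adjusted p under 0.05, while 2.81% of all 14900 genes tested rose and 7.52% passed in either direction. The fold change was above 0 for 39 members (50.1% of all genes), the KO libraries lay above both WT libraries for 38 (30.1% of all genes), and the median log2 fold change was 0.55, beside 0.001 for all genes.

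The call rests on every KO library and on WT 1. Without WT 1 the log2 fold changes of the 13 genes were 0.59 to 1.13, with edgeR adjusted p from 0.0576 to 0.0780, and 0 members passed. Without KO 1, 0 passed as well, with log2 fold changes of 0.66 to 1.35 and edgeR adjusted p from 0.0924 to 0.155. Without KO 2, 0 passed, with log2 fold changes of 0.60 to 1.195 and edgeR adjusted p from 0.257 to 0.325. The sizes thus stayed near those of all 6 libraries (0.62 to 1.27), while a genotype left with 1 library is assumed to vary like the others. Without WT 2 the log2 fold changes of the 13 were 0.63 to 1.45. Without DeltaSP 1 or DeltaSP 2, which enter this comparison through the shared estimate of spread and the scaling, they were 0.63 to 1.28. In each of these fits not all of the 13 passed. No fold change of the 13 turned sign in any of these fits. A sum over a library cannot tell fewer S phase cells from less S phase RNA per cell. Further on the cells are divided by pan-neuronal genes and not by S phase state. Sums within those ranges cannot tell these apart either.

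**Figure D1:**
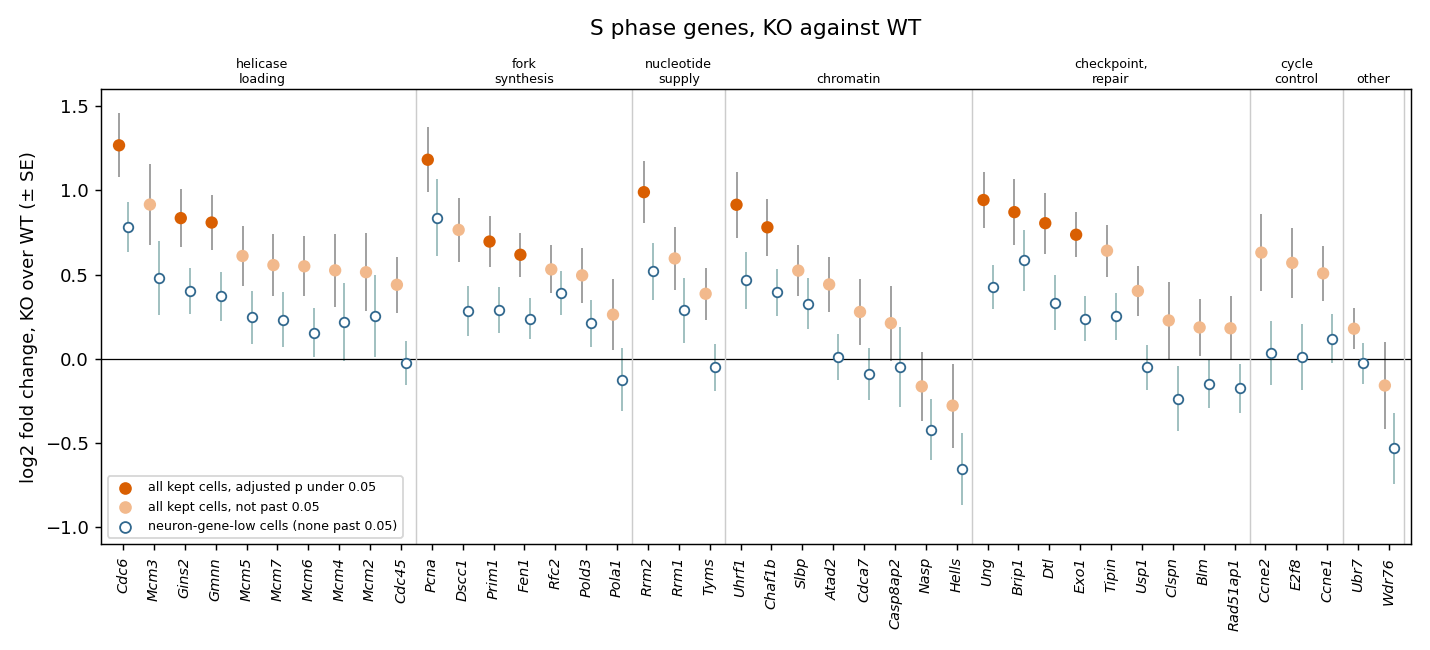
Log2 fold change of KO over WT (± SE) for each of the 42 members, ordered within 7 role groups on the x axis. Filled points are sums over all kept cells, dark where the edgeR adjusted p was under 0.05 (13 genes), and open points are neuron-gene-low cells, where none passed and where the median was 0.23 in place of 0.55.

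Among the 10 genes of helicase loading and the helicase, 3 rose in KO: Cdc6, Gmnn and Gins2. Cdc6, which recruits the Mcm ring to origins, had 13.03 and 16.3 CPM (here and below scaled by TMM, all kept cells) in WT, 30.02 and 39.01 in DeltaSP, and 33.5 and 37.4 in KO. All 4 edited libraries lay above both WT libraries, and the edited genotypes overlapped each other. The log2 fold change of KO over WT was 1.27 ± 0.19 (SE from the fit to all 6 libraries, n = 2 in each genotype, edgeR adjusted p = 0.0262), the furthest from 0 among the members. Gmnn, the inhibitor of repeated licensing, had 100.1 and 89.4 CPM in WT, 120.3 and 148.2 in DeltaSP, and 154.1 and 178.0 in KO, a separation of all 3 genotypes in that order (KO over WT 0.81 ± 0.16, edgeR adjusted p = 0.0382). Gins2, a GINS subunit, had 50.5 and 47.1 CPM in WT, 62.7 and 84.7 in DeltaSP, and 82.6 and 91.6 in KO (0.84 ± 0.17, edgeR adjusted p = 0.0387). Its WT libraries lay below the other 4.

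The 6 subunits of the Mcm ring did not pass. Mcm7 had 110.5 and 131.7 CPM in WT, 159.3 and 208.4 in DeltaSP, and 168.6 and 187.8 in KO, so that WT was again below the other 4 libraries while KO lay inside the range of DeltaSP. Its log2 fold change of KO over WT was 0.56 ± 0.18 (edgeR adjusted p = 0.0959). Mcm3 had the largest value of the ring, 0.92 ± 0.24 (edgeR adjusted p = 0.0593), with 43.2 and 66.6 CPM in WT and 97.1 and 110.3 in KO. The other 4 subunits lay between 0.51 (Mcm2) and 0.61 (Mcm5). Cdc45, which joins the ring to GINS, was at 0.44 ± 0.17 (edgeR adjusted p = 0.134).

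Of the 7 genes that work at the fork, 3 rose. Pcna, the clamp, had 42.1 and 56.8 CPM in WT, 78.5 and 61.3 in DeltaSP, and 106.9 and 117.8 in KO, and the 3 genotypes did not overlap (KO over WT 1.18 ± 0.19, edgeR adjusted p = 0.0291). Pcna was also the member with the smallest p in KO against DeltaSP, at 0.69 ± 0.19, where it did not pass (edgeR adjusted p = 0.844). Fen1, the nuclease that trims the flaps of lagging-strand fragments, had 65.5 and 65.6 CPM in WT, 85.1 and 95.8 in DeltaSP, and 98.5 and 102.8 in KO (0.62 ± 0.13, edgeR adjusted p = 0.0402). The WT libraries of Fen1 were nearly equal and both edited genotypes lay above them. Prim1, the catalytic primase subunit, had 42.4 and 39.3 CPM in WT, 54.5 and 66.7 in DeltaSP, and 62.6 and 69.6 in KO (0.70 ± 0.15, edgeR adjusted p = 0.0407). Rfc2, a subunit of the clamp loader, had 85.3 and 89.4 CPM in WT, 107.4 and 125.3 in DeltaSP, and 120.2 and 132.2 in KO, again with WT lowest, and did not pass (0.53 ± 0.14, edgeR adjusted p = 0.0632). Dscc1 of the alternative clamp loader (0.77), the polymerase delta subunit Pold3 (0.50) and the polymerase alpha catalytic subunit Pola1 (0.26) did not pass either.

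Of the 3 genes of nucleotide supply, Rrm2 rose. Rrm2 encodes the small subunit of ribonucleotide reductase, which is made in S phase and makes deoxynucleotides. It had 160.6 and 195.1 CPM in WT, 260.3 and 317.4 in DeltaSP, and 326.2 and 380.2 in KO (0.99 ± 0.18, edgeR adjusted p = 0.0328), so its libraries separated in the order WT, DeltaSP, KO. Rrm1, the large subunit, was at 0.60 ± 0.19 and the thymidylate synthase gene Tyms at 0.39 ± 0.16, and neither passed.

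The 8 chromatin and histone genes held both risers and the members with the lowest values. Uhrf1, which guides maintenance DNA methylation behind the fork, had 45.2 and 64.3 CPM in WT, 79.8 and 94.8 in DeltaSP, and 97.4 and 109.4 in KO (0.91 ± 0.20, edgeR adjusted p = 0.0402). Chaf1b, a subunit of the histone chaperone CAF-1, had 47.0 and 46.8 CPM in WT, 62.9 and 79.9 in DeltaSP, and 72.6 and 88.5 in KO (0.78 ± 0.17, edgeR adjusted p = 0.0405). For both genes WT was below the other 4 libraries. Hells, a chromatin remodeller needed for DNA methylation, ran the other way, with 82.4 and 70.5 CPM in WT, 47.0 and 82.9 in DeltaSP, and 62.9 and 63.2 in KO (-0.28 ± 0.25, edgeR adjusted p = 0.493). The DeltaSP libraries of Hells spanned both other genotypes. Nasp, a histone chaperone, had 365.1 and 290.6 CPM in WT, 256.0 and 351.1 in DeltaSP, and 286.6 and 298.9 in KO, with overlap throughout (-0.16 ± 0.20, edgeR adjusted p = 0.628). Slbp, which binds the stem-loop of histone messages (0.52), Atad2 (0.44), Cdca7 (0.28) and Casp8ap2 (0.21) lay between and did not pass.

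Of the 9 checkpoint and repair genes, 4 rose. Ung, which removes uracil from DNA, had 18.2 and 18.7 CPM in WT, 25.3 and 32.8 in DeltaSP, and 33.99 and 36.99 in KO (0.94 ± 0.17, edgeR adjusted p = 0.0314). Exo1, an exonuclease of mismatch repair and end resection, had 20.8 and 21.0 CPM in WT, 29.0 and 31.9 in DeltaSP, and 34.1 and 35.7 in KO (0.74 ± 0.13, edgeR adjusted p = 0.0320). Both genes separated the 3 genotypes in the order WT, DeltaSP, KO. Dtl, the substrate receptor that marks Cdt1 for destruction at Pcna, had 24.4 and 34.6 CPM in WT, 39.1 and 41.9 in DeltaSP, and 49.5 and 53.9 in KO (0.81 ± 0.18, edgeR adjusted p = 0.0457). Brip1, a DNA helicase that partners Brca1, had 8.67 and 7.13 CPM in WT, 12.1 and 14.3 in DeltaSP, and 12.98 and 15.8 in KO (0.87 ± 0.20, edgeR adjusted p = 0.0461), with the edited genotypes overlapping.

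Tipin, of the complex that protects paused forks, stood nearest outside the threshold, with 96.4 and 109.1 CPM in WT, 117.2 and 140.6 in DeltaSP, and 153.6 and 167.3 in KO (0.64 ± 0.15, edgeR adjusted p = 0.05003). Its libraries separated all 3 genotypes, as those of Dtl did. Usp1, which removes ubiquitin from Pcna (0.40), the checkpoint mediator Clspn (0.23), the helicase Blm (0.19) and Rad51ap1 (0.18) did not pass.

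None of the 3 genes of cycle control passed. The G1 to S cyclin Ccne1 had 41.2 and 52.2 CPM in WT, 61.2 and 72.2 in DeltaSP, and 64.7 and 68.3 in KO, with WT lowest and the edited genotypes overlapping (0.51 ± 0.16, edgeR adjusted p = 0.0916). Ccne2 was at 0.63 ± 0.23 and the repressor E2f8 at 0.57 ± 0.21. The remaining pair, Ubr7 (0.18), with 32.2 and 32.7 CPM in WT, 38.1 and 38.1 in DeltaSP, and 36.0 and 37.5 in KO, and Wdr76 (-0.16), did not pass either. For Ubr7 the WT libraries were lowest and the DeltaSP libraries highest.

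**Figure D2:**
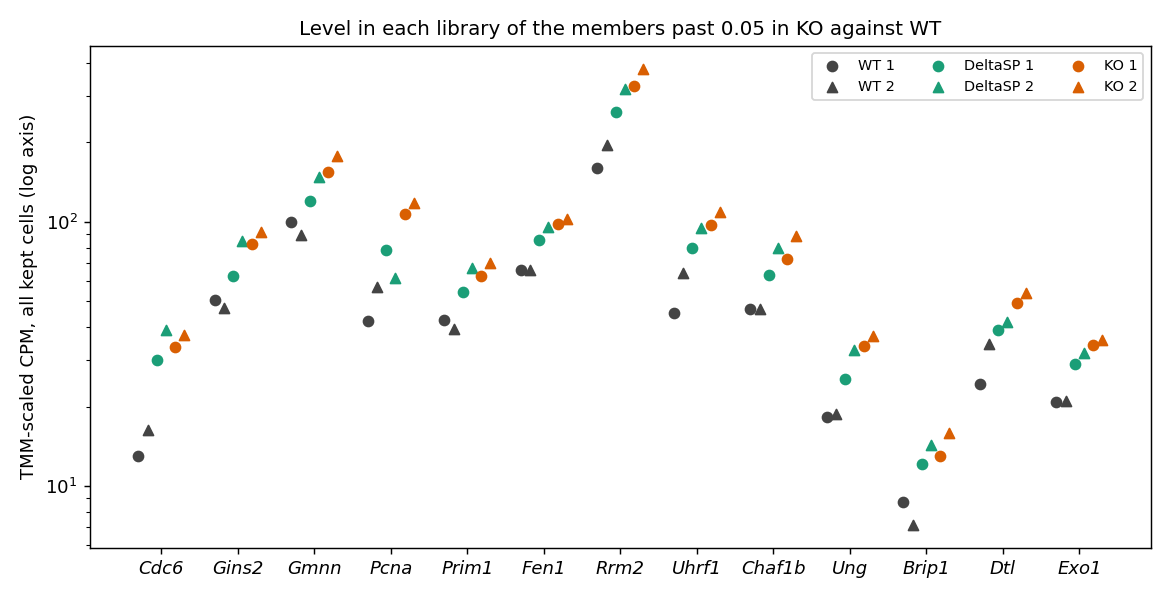
TMM-scaled CPM over all kept cells (log axis) of the 13 members that passed in KO against WT, 1 point per library. In each gene both WT points lie below both KO points, and the DeltaSP points lie above WT and either below KO or overlapping it, as for Cdc6 (30.02 and 39.01 against 33.5 and 37.4).

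In DeltaSP against WT, 0 of the 42 members passed by edgeR, 25 had an unadjusted p under 0.05 with a higher level in DeltaSP (8.77% of all genes), and 2 were higher by DESeq2's Wald test (2.12% of all genes). By edgeR 0.356% of all genes passed. The fold change was above 0 for 39 members (48.6% of all genes) and the DeltaSP libraries lay above WT for 32 (24.9% of all genes), with a median log2 fold change of 0.47. Cdc6 came closest, at 1.23 ± 0.19 (edgeR adjusted p = 0.0677). Next were Exo1 at 0.54, Ung at 0.66, Prim1 at 0.57 and Rrm2 at 0.70. In KO against DeltaSP, 0 members passed by edgeR or DESeq2, 1 was higher at an unadjusted p under 0.05 (1.18% of all genes), and 29 were above 0 with a median of 0.12 (49.3% of all genes were above 0 and 0.00671% passed). Without DeltaSP 1 that median was -0.03, and without DeltaSP 2 it was 0.29. These comparisons share libraries with KO against WT, so their values are given side by side only.

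One feature of the genome runs along with some of these values. Genes on chromosome 11 had a median log2 fold change over WT of 0.39 in KO and of 0.38 in DeltaSP, where each of 19 other chromosomes lay between -0.11 and 0.02, and between -0.11 and 0.0003. In KO against DeltaSP the median for chromosome 11 was -0.007. Of the members, which lie on 17 chromosomes, Cdc6 and Brip1 are on chromosome 11, and both rose in KO. Its part in their values was not tested. Among the 40 members on other chromosomes 11 rose in KO, and their median over WT was 0.54 in KO and 0.46 in DeltaSP.

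The wider machinery was taken from a list of 46 other replication genes. In KO against WT 14 of them rose and 0 fell, with a median of 0.60. The 6 with the smallest p were Tk1, Rpa1, Pole2, Asf1b, Pold2 and Rpa2. The thymidine kinase gene Tk1 had 39.03 and 46.2 CPM in WT, 87.5 and 108.1 in DeltaSP, and 108.0 and 117.4 in KO (1.40 ± 0.16, edgeR adjusted p = 0.0207). Tk1 lay far above WT in all 4 edited libraries, and it was the only gene of this list that passed in DeltaSP against WT. Rpa1 (1.23) and Rpa2 (0.92) encode subunits of the protein that coats single-stranded DNA, Pole2 (1.19) and Pold2 (1.18) polymerase subunits, and Asf1b (1.22) a histone chaperone. Tk1, Rpa1 and Pold2 are on chromosome 11, and the part of that in their values was not tested.

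Other phases and cell states moved with the members. Of 52 genes of G2 and M phase 18 rose and 0 fell in KO against WT, with sums of 4831 and 4944 plain CPM in WT, 5903 and 6492 in DeltaSP, and 7315 and 8182 in KO. The proliferation marker Mki67 was at 1.10 ± 0.17 and Top2a at 0.94 ± 0.20, both passing by edgeR; Top2a is on chromosome 11, whose part in its value was not tested. Of 16 pan-neuronal genes 8 fell and 0 rose (4.71% of all genes fell), with Stmn2 at -1.18 ± 0.25 (passed) and Tubb3 at -0.57 ± 0.23 (not passed). Their sums were 9085 and 12185 plain CPM in WT, 9821 and 6921 in DeltaSP, and 7720 and 6651 in KO, and DeltaSP overlapped both other genotypes. The motor neuron progenitor genes Olig2 (0.79 ± 0.14) and Olig1 both rose. Sox2 was at 0.63 ± 0.23 and did not pass.

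To separate the number of progenitors from the level in them, each cell with at least 3000 UMIs was thinned to 3000 at random and placed by its UMIs of the 16 pan-neuronal genes, none of which is a member: 3 or fewer (neuron-gene-low), 4 to 9 (middle) and 10 or more (neuron-gene-high). These are ranges of a score and not cell types. Of 14726 cells, 7107 were low, 2542 middle and 5077 high, and 1499 kept cells with under 3000 UMIs were left out, 936 of them from WT 1. Near the lower bound, 132 to 327 cells per library had 3 such UMIs and up to 274 had 4, and near the upper bound 17 to 64 had 9 and 12 to 45 had 10. Neuron-gene-low cells had medians of 9 to 14 UMIs of 12 neural progenitor genes and of 0 UMIs of 7 motor neuron genes in each library, and neuron-gene-high cells medians of 2 to 5 and of 3 to 5.

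The neuron-gene-low range took 26.6% and 39.97% of cells in WT, 46.7% and 60.6% in DeltaSP, and 59.2% and 62.5% in KO. WT lay below the other 4 libraries and DeltaSP overlapped KO. KO exceeded WT by 27.6 percentage points (60.9 ± 2.28 against 33.3 ± 9.47, SD, n = 2 libraries each; exact permutation test over libraries, two-sided p = 0.3333, the smallest this design allows). Without WT 1 the excess was 20.9 points. The neuron-gene-high range took 47.2% and 42.8% of cells in WT, 36.2% and 26.7% in DeltaSP, and 27.2% and 24.5% in KO.

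In plain CPM, all 42 members were higher in neuron-gene-low than in neuron-gene-high cells in each of the 6 libraries. The share of all genes that were higher in neuron-gene-low cells was not worked out, so this count stands without a background. The sum of the members was 3.42 to 4.5995 times as high. The ratio was widest for Cdc6 (9.04 to 17.3), E2f8 (9.75 to 33.3) and Exo1 (8.10 to 14.2), and the E2f8 levels in neuron-gene-high cells were at or below 1.2 CPM. It was narrowest for Ubr7 (1.75 to 2.05), Rfc2 (1.87 to 2.43), Casp8ap2 (2.08 to 2.46), Slbp (1.68 to 2.62) and Nasp (2.20 to 2.78). Genes of the Mcm ring differed among themselves, with Mcm2 at 2.62 to 3.24 and Mcm3 at 6.86 to 12.7.

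**Figure D3:**
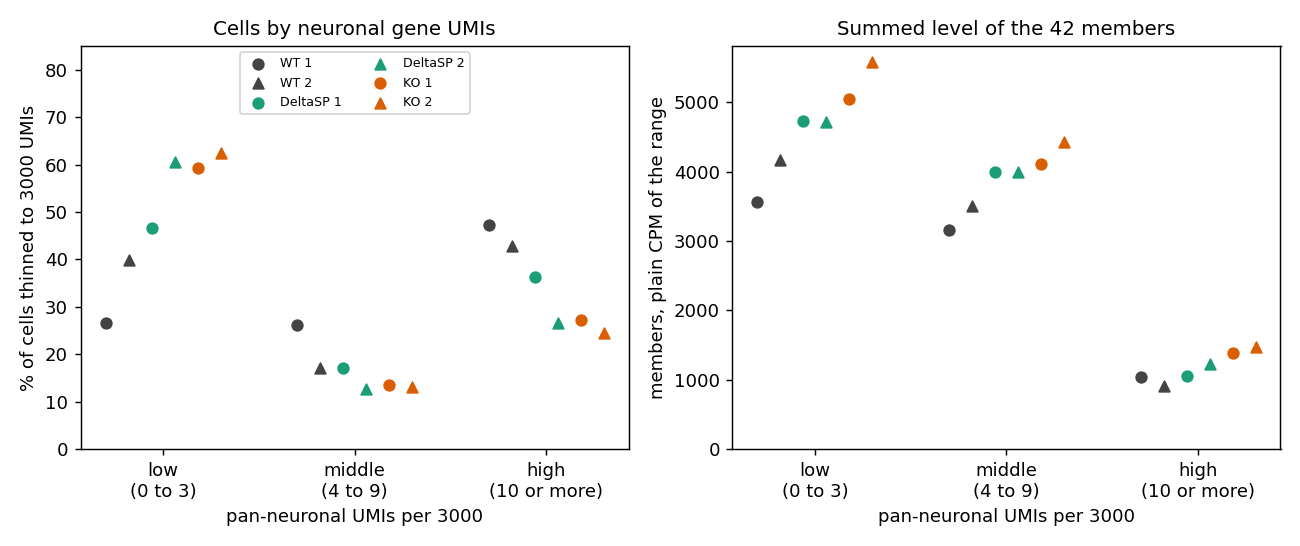
Left, the percentage of thinned cells in each range of pan-neuronal UMIs, and right, the summed plain CPM of the 42 members in each range, 1 point per library. WT has the fewest neuron-gene-low cells (26.6% and 39.97%), and the member sum falls from 3558 to 5582 in that range to 906 to 1474 in the neuron-gene-high range.

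Inside the neuron-gene-low range the differences were smaller. The summed members stood at 3558 and 4169 plain CPM in WT, 4728 and 4719 in DeltaSP, and 5057 and 5582 in KO, still in the order WT, DeltaSP, KO with no overlap. By edgeR, 0 of 42 members passed in KO against WT, where 1.36% of all 13545 genes did; 10 members were higher and 2 lower at an unadjusted p under 0.05 (8.44% and 10.8% of all genes), and 2 were higher by DESeq2's Wald test (1.51% of all genes). The fold change was above 0 for 29 members (51.2% of all genes), the KO libraries lay above WT for 22 (25.8% of all genes) and below it for 4 (23.3% of all genes), and the median log2 fold change was 0.23. Without WT 1 the median was 0.11 and 0 members passed. With any 1 library left out, the median ran from 0.11 to 0.27. On simulated data for this range 40% of 2-fold changes were found, so 0 passing does not show that members were unchanged.

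Single genes stood differently within this range. Cdc6 had 26.7 and 32.03 CPM in WT, 47.9 and 55.2 in DeltaSP, and 49.5 and 52.4 in KO, with WT well below the others, at 0.78 ± 0.15 (edgeR adjusted p = 0.0587). The median for chromosome 11 here was 0.36. Pcna had 66.9 and 96.2 CPM in WT, 115.1 and 80.5 in DeltaSP, and 141.8 and 151.7 in KO, with DeltaSP overlapping WT, at 0.84 ± 0.23 (edgeR adjusted p = 0.120). Ccne2 had 19.4 and 27.0 CPM in WT, 20.4 and 20.5 in DeltaSP, and 26.3 and 22.0 in KO, which overlapped throughout (0.03 ± 0.19).

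The 4 members whose KO libraries lay below WT in neuron-gene-low cells were Hells, Wdr76, Nasp and Blm, and none passed. Hells had 148.1 and 130.2 CPM in WT, 75.3 and 117.5 in DeltaSP, and 89.97 and 86.5 in KO, so both edited genotypes were below WT (KO over WT -0.66 ± 0.21, edgeR adjusted p = 0.164). Nasp had 514.5 and 433.0 CPM in WT, 336.5 and 429.9 in DeltaSP, and 351.3 and 356.6 in KO (-0.42 ± 0.18, edgeR adjusted p = 0.265). Wdr76 was at -0.53 ± 0.21 and Blm at -0.15 ± 0.15. The cells in the range were not alike in kind: the 2 motor neuron progenitor genes Olig2 and Olig1 summed to 268 and 300 plain CPM in WT, 464 and 413 in DeltaSP, and 487 and 544 in KO, and 4 floor plate and p3 genes to 52.7 in WT 1 and 191 to 314 in the other 5. The 16 pan-neuronal genes summed to 768 and 655 plain CPM in WT, 596 and 423 in DeltaSP, and 458 and 423 in KO, although the range was set by them, and 15 of the 16 had a fold change below 0 in KO against WT (median -1.21). The 52 genes of G2 and M phase summed to 7708 and 8018 in WT, 8666 and 8288 in DeltaSP, and 9523 and 10252 in KO. A list of 7 interferon response genes summed to 21.8 and 18.8 in WT, 377 and 228 in DeltaSP, and 57.0 and 128.2 in KO. The part of these in the members' values was not tested. In neuron-gene-low cells with at least 1 UMI of Olig1 or Olig2 the members summed to 3445 and 4389 plain CPM in WT, 4738 and 4816 in DeltaSP, and 5036 and 5687 in KO, the same order as over the whole range.

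In DeltaSP against WT, neuron-gene-low cells gave 0 of 42 members by edgeR (0.00738% of all genes passed), 3 higher and 1 lower at an unadjusted p under 0.05 (6.05% and 5.93% of all genes), and 1 higher by DESeq2 (0.709% of all genes). The median log2 fold change was 0.20. In KO against DeltaSP 0 passed by edgeR (0.00738% of all genes) and by DESeq2, 1 was higher and 1 lower at an unadjusted p under 0.05 (0.938% and 4.19% of all genes), and the median was 0.009, or -0.06 to 0.08 with 1 library left out.

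In neuron-gene-high cells, 3 members rose in KO against WT by edgeR, where 1.02% of all 13020 genes rose and 3.79% passed in either direction: Pcna, Rrm2 and Uhrf1. Rrm2 had 55.1 and 48.0 CPM in WT, 68.8 and 104.3 in DeltaSP, and 124.1 and 118.1 in KO (1.23 ± 0.21, edgeR adjusted p = 0.0287). Uhrf1 had 13.7 and 15.8 CPM in WT, 20.6 and 27.1 in DeltaSP, and 31.6 and 34.1 in KO (1.15 ± 0.19, edgeR adjusted p = 0.0279). Pcna had 20.2 and 19.6 CPM in WT, 28.8 and 22.5 in DeltaSP, and 42.8 and 37.3 in KO (1.01 ± 0.17, edgeR adjusted p = 0.0295). All 3 genes separated the genotypes in the order WT, DeltaSP, KO. None of the 3 passed without WT 1 (log2 fold changes of 1.05 to 1.36, edgeR adjusted p between 0.0512 and 0.0530), without KO 1 (0.91 to 1.21) or without KO 2 (1.10 to 1.28). The summed G2 and M phase genes in this range were 2307 and 1909 plain CPM in WT, 2114 and 2647 in DeltaSP, and 2924 and 2983 in KO. The 12 neural progenitor genes summed to 1020 and 1284 plain CPM in WT, 1444 and 1638 in DeltaSP, and 1849 and 2088 in KO, and Olig1 with Olig2 to 62.97 and 69.3, 76.996 and 81.6, and 112.9 and 114.3. Both of these sums, unlike those of G2 and M phase, separated the genotypes in the same order as the 3 genes, and their part in the result was not tested. No doublet caller was run.

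In neuron-gene-high cells of DeltaSP against WT 0 of 42 members passed by edgeR (0.0154% of all genes) and 0 by DESeq2, with 8 higher and 1 lower at an unadjusted p under 0.05 (7.32% and 6.69% of all genes). In KO against DeltaSP 0 passed by edgeR (0.00768% of all genes) and 0 by DESeq2, with 4 higher at an unadjusted p under 0.05 (1.73% of all genes). Whether the KO effect differed between neuron-gene-low and neuron-gene-high cells was tested for each gene with library as a block. By edgeR 0 of 42 members passed, 6 had an unadjusted p under 0.05 (12.3% of all genes), and the lowest adjusted p was that of Uhrf1 (log2 difference -0.64 ± 0.16, edgeR adjusted p = 0.162). For DeltaSP 0 passed by edgeR and 4 had an unadjusted p under 0.05 (6.73% of all genes). Without WT 1, 24 members had an unadjusted p under 0.05 in the KO test (13.4% of all genes) and 0 passed.

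Counted per cell, the members gave a broad spread. In neuron-gene-low cells the median cell held 9 and 11 member UMIs of its 3000 in WT, 13 and 13 in DeltaSP, and 14 and 15 in KO. In neuron-gene-high cells it held 2 and 2, 3 and 3, and 3 and 3. The medians of low cells thus rose in the same order as the sums.

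Cells with at least 10 member UMIs made up 49.5% (95% Wilson interval 46.3 to 52.7) and 58.6% of neuron-gene-low cells in WT, 68.2% and 69.0% in DeltaSP, and 73.9% and 78.3% in KO. The genotypes did not overlap. KO exceeded WT by 22.0 percentage points, DeltaSP exceeded WT by 14.5 and KO exceeded DeltaSP by 7.48, each with an exact permutation p over libraries of 0.3333, the smallest possible. Without WT 1 the first was 17.5 and the second 9.98 points. Over all thinned cells the shares were 25.04% and 31.7% in WT, 41.1% and 50.3% in DeltaSP, and 53.7% and 57.9% in KO. In neuron-gene-high cells, which should hold few replicating cells and in which the depth was like that of the low range (median 4616 to 18242 UMIs before thinning, against 4860 to 15222), the shares were 3.63% and 2.63% in WT, 3.80% and 6.95% in DeltaSP, and 8.88% and 7.16% in KO. Before thinning the shares in neuron-gene-low cells were 72.2% in WT 1 and 94.0% to 97.6% in the other 5 libraries.

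**Figure D4:**
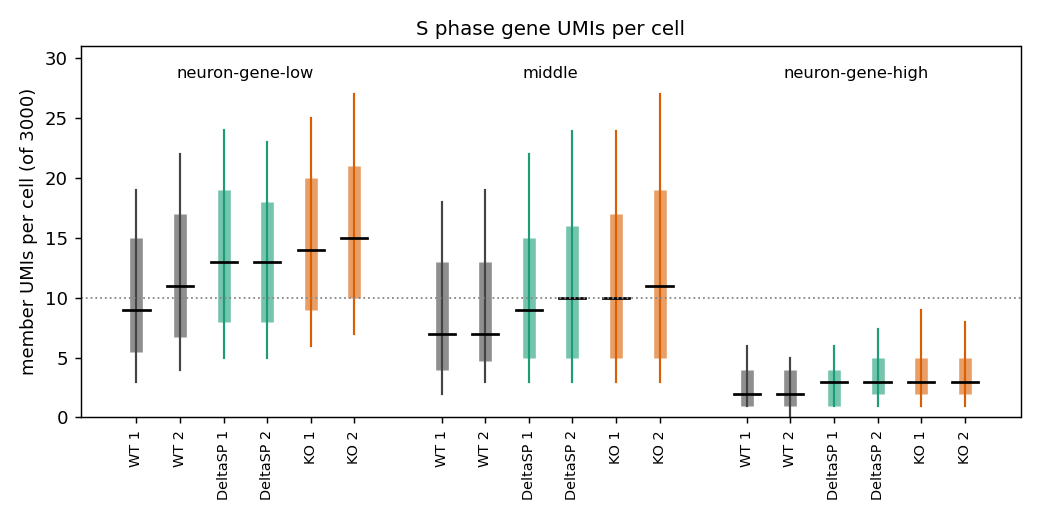
UMIs of the 42 members per cell after thinning to 3000 UMIs, for each library and range; the black line is the median, the box the middle 50% of cells and the thin line the 10th to 90th percentile. The dotted line marks 10 UMIs, and medians in neuron-gene-low cells run from 9 in WT 1 to 15 in KO 2.

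S phase has an order, and how the members spread over neuron-gene-low cells is described here with no test. In each library the cells were ranked by the summed UMIs of the other 41 members, and a gene's UMIs in the richest 25% of cells were set against those in the poorest 25%. Because the members rise together in S phase cells, a ratio above 1 is a description of how a gene is shared out among cells. All 42 genes were higher in the richest cells in every library in which the ratio could be formed, and for E2f8 1 library had 0 UMIs in the poorest 25%. The median over genes of the median ratios was 3.23. How many of all genes were higher in these cells was not worked out, so the count of 42 stands without a background.

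The most unevenly spread genes were Cdc6, Ccne2 and Ung, 1 each from licensing, the G1 to S step and uracil repair. Ccne1, the other cyclin of the set, had a median ratio of 3.59. Ccne2 had 32 to 72 UMIs in the richest 25% of cells of the 6 libraries and 1 to 4 in the poorest, and Cdc6 had 38 to 172 and 1 to 18. Ung had 24 to 140 and 4 to 16 UMIs (median ratio 8.28). At the other end, Rfc2 had a median ratio of 1.53 (1.30 to 2.26), Cdca7 of 1.78, Nasp of 1.88 and Mcm2 of 1.90. Pcna lay near the middle at 3.94, although its ratio was 7.22 and 8.44 in WT, 3.5 and 4.22 in DeltaSP, and 2.67 and 3.66 in KO. The 2 WT libraries were the highest of the 6 for Pcna, as they were for Uhrf1 and Atad2 but not for Chaf1b. The level of Pcna in the poorest 25% of cells was 12.7 and 19.9 CPM (of the thinned UMIs) in WT. It was 52.5 and 29.8 in DeltaSP, and 82.5 and 69.4 in KO. The WT values rest on 9 UMIs each. Cells were ranked within each library, so the poorest cells of different libraries are not like cells. Ranked by all members, the poorest 25% ended at 5 and 6 member UMIs in WT and at 9 and 10 in KO.

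The same cells were then ranked by the 52 genes of G2 and M phase, none of which is a member. For 10 members the ratio of the richest to the poorest 25% of cells was at or below 1 in all 6 libraries: Ung, Ccne2, Cdc6, Mcm4, Mcm6, Ccne1, Mcm5, Dtl, Chaf1b and Mcm3. Ung was the lowest, at a median of 0.17 (0.04 to 0.25), with 24 to 93 UMIs in cells poor in G2 and M phase transcripts and 1 to 20 in cells rich in them. Cdc6 had a median of 0.38 and Ccne2 of 0.35, Mcm4 of 0.54 and Mcm6 of 0.61. For 6 members the ratio was above 1 in all 6: Rrm1 (1.55), Rrm2 (1.52), Gmnn (1.47), Usp1 (1.46), Nasp (1.32) and Clspn (1.27). Gmnn protein is known to accumulate from S phase until mitosis. Shares of all genes that meet these rules were not worked out, so the counts of 10 and 6 stand without a background. The other 26 members had ratios on both sides of 1, apart from Prim1 (at 1 in 1 library and above it in 5), among them Pcna (0.84), Mcm2 (0.49) and Blm (1.73).

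**Figure D5:**
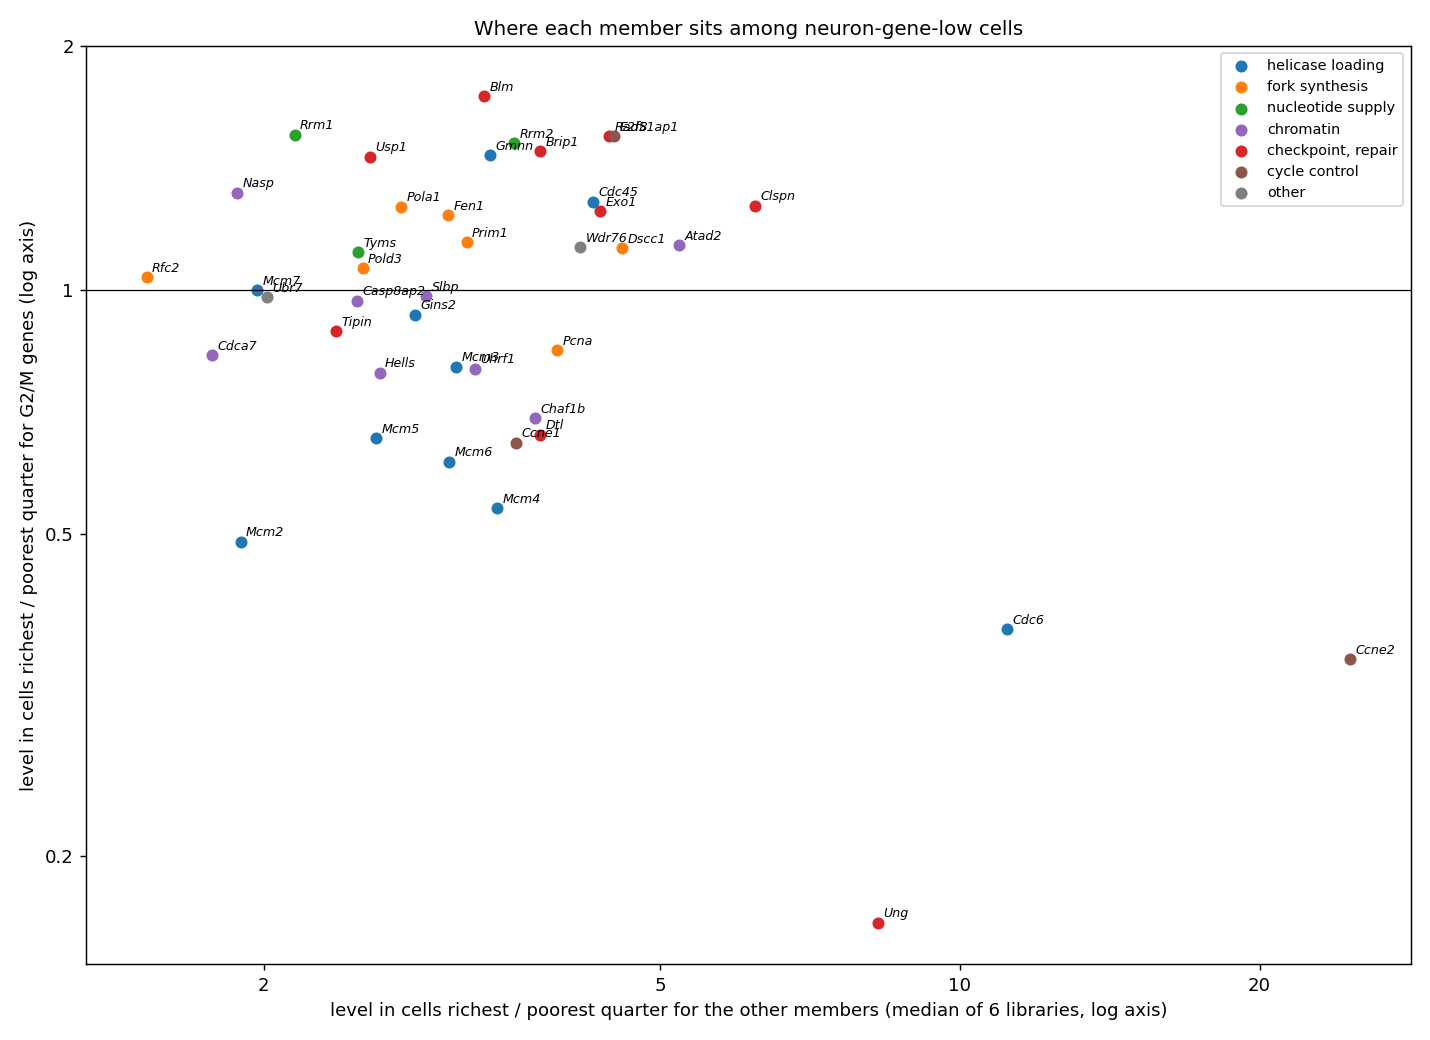
Each point is 1 member, in neuron-gene-low cells: x, its UMIs in the 25% of cells richest over the 25% poorest in the other 41 members; y, the same for the 52 genes of G2 and M phase (medians over libraries, both axes log). Cdc6, Ccne2 and Ung lie apart at the lower right (y of 0.38, 0.35 and 0.17), and Ccne2 rests on 1 to 4 UMIs in the poorest 25%.

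Cells rich in members were not the cells richest in G2 and M phase transcripts. With neuron-gene-low cells in 4 equal bins by member UMIs, the mean number of G2 and M phase UMIs was highest in bin 2, the next to poorest, in every library. In WT 1 the means were 16.6, 27.4, 24.6 and 18.5 UMIs from the poorest to the richest bin. In KO 2 they were 28.28, 35.3, 28.9 and 22.7. In WT the richest bin held more G2 and M phase UMIs than the poorest, with differences of 1.86 and 0.801. In all 4 edited libraries it held fewer, with differences of -1.44 and -0.361 in DeltaSP and of -4.80 and -5.63 in KO. The bins were cut within each library, and the poorest bin ended at 5 and 6 member UMIs in WT, 8 and 8 in DeltaSP, and 9 and 10 in KO, so like bins do not hold like cells. No error within a library was worked out, and the difference between genotypes was not tested.

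Members with and without an E2F-type word are last set side by side, with no test. Members without a word in the window can still have E2F sites. Of the 14 members with a word in the promoter window 3 rose in KO against WT over all cells (Cdc6, Uhrf1 and Dtl), with a median log2 fold change of 0.52 and a range from -0.28 (Hells) to 1.27 (Cdc6). Of the 18 matched members without it 7 rose, with a median of 0.55, and of the 10 unmatched members 3 rose.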

How the data were processed

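Each of 6 libraries of day 6 embryoid bodies was measured by droplet single-cell RNA sequencing (10x Genomics 3' chemistry, V3.1 in the sample labels and V3 in the series design). Per the labels and the submitters' processing notes, the authors ran Cell Ranger 4.0 against the mm10 build with Ensembl release 93 annotation, and they deposited unnormalized UMI counts for each gene in each cell. 3' UMI counts are not divided by transcript length.

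From these counts, cells with 1000 or more detected genes and no more than 10% mitochondrial UMIs were kept (16225), with no doublet caller, and counts were summed per library or range. Groups came from sample titles. Tests used edgeR 4.0.16 (R 4.3.3; TMM, filterByExpr, quasi-likelihood, all 6 libraries in 1 fit, genotype as the term) over all genes with Benjamini-Hochberg adjustment at 0.05. Each SE is the size of the log2 fold change divided by the square root of its F statistic. It thus rests on a spread shared by all 6 libraries and not on the 2 of a genotype alone. DESeq2 1.42.0 and other filters, libraries, cell sets, bounds and thinning depths were alternatives. Shares used exact permutation over libraries, for which 2 against 2 cannot give a p below 0.3333; intervals cover counting error only. On simulated data for KO against WT over all cells (14741 genes), 33.3% of 2-fold and 91% of 4-fold changes were found. The shares were 40% and 87% in neuron-gene-low cells, and 48% and 96% in neuron-gene-high cells. False calls numbered 9, 10 and 6 in that order. A member that did not pass is thus not shown to be unchanged. Replicate numbers were not used to pair the samples, since the titles name no batch that they share. Same-numbered deviations correlated at 0.26 (KO and WT), -0.19 (DeltaSP and WT) and 0.06 (KO and DeltaSP). With 2 libraries a genotype these values cannot settle whether the numbers pair the samples.

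The members and lists were chosen with earlier results of these data known. All 42 members are accounted for by role. Values for each library are given for members that passed, for the highest member of each role group, and for a few more (Mcm3, Hells, Tipin, Ccne2) chosen after their values were seen; of 46 other replication genes the 6 with the smallest p are named. The 10 members without a matched promoter are Atad2, Ccne2, Dscc1, Exo1, Gins2, Gmnn, Mcm4, Rfc2, Tipin and Usp1.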

Additional observations from a re-analysis of the deposited data

Results flagged for a closer look

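In neuron-gene-low cells, the difference in mean G2 and M phase UMIs per cell (of 3000) between the richest and the poorest bin by member UMIs had 1 sign in both WT libraries and the other sign in all 4 edited libraries. With 2 libraries a genotype, the mean over WT was 1.33, that over KO -5.22 and that over DeltaSP -0.900. The values nearest 0 were 0.801 in WT 2 and -0.361 in DeltaSP 2, and no error within a library was worked out. The bins were cut within each library at different member UMIs, and the difference between genotypes was not tested.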

How the results depend on the processing

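Counts of members passing depended on the test, the filter and the library set. By DESeq2's Wald test they were 21 (KO against WT) and 2 (DeltaSP against WT) over all cells, and 2 and 1 in neuron-gene-low cells. With no low-count filter they were 27 (KO against WT), 17 (DeltaSP against WT) and 1 (KO against DeltaSP) over all cells; 3 higher and 1 lower, and 1 higher, for the first pair in neuron-gene-low cells; and 8 higher, and 2 higher and 1 lower, in neuron-gene-high cells. With only the 2 genotypes compared 8 passed in KO against WT, and with sums thinned to the smallest library 1 in DeltaSP against WT, both over all cells. Leaving out 1 library at a time gave 0 to 22 (KO against WT) and 0 to 8 (DeltaSP against WT) over all cells, 0 to 8 higher with 0 to 1 lower, and 0 to 2 higher, in neuron-gene-low cells, and 0 to 4 in neuron-gene-high cells of KO against WT, where the median was 0.61 without WT 1 in place of 0.34. The cause of these changes was not tested. The number of all genes passing moved too. Over all cells it ran from 4 to 3390 for KO against WT, around 1121. For DeltaSP against WT it ran from 1 to 1326, around 53, and for KO against DeltaSP from 1 to 422, around 1. Apart from some DESeq2 shares in the Results, the share of all genes passing in the same run is not given. These alternative member counts thus cannot show whether members passed more often than other genes. With DESeq2 size factors, a looser cell filter, without the 5% of cells with the most UMIs or with thinned sums, all 13 genes still passed.

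With the replicate number as a block 14 members passed in KO against WT, 12 of the 13 among them, and no other count of passing members changed. Whether the numbers pair the samples is not known. None of the 16 passing gene values, 13 over all cells and 3 in neuron-gene-high cells, changed sign in any alternative run.

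For shares of cells, a bound of 20 member UMIs gave a KO excess over WT of 14.2 points over all cells, 15.9 in low, 12.8 in middle and 0.958 in high cells, a DeltaSP excess over WT of 7.54 over all and 8.53 in low cells, and a KO excess over DeltaSP of 0.297 in high cells. Without the 5% of cells with the most UMIs the middle KO excess over WT was 13.9 and the high KO excess over DeltaSP 0.838. In high cells KO exceeded WT by 3.53 points with range bounds of 15 and 2, and by 6.19 with thinning to 2000 UMIs, for which the range bounds and the member bound were lowered as well, in place of 4.89. Depth limits the low members most: Ccne2 and Cdc6 had as few as 1 UMI in the poorest 25% of cells. The KO excess in the share of neuron-gene-low cells was 20.9 to 34.3 points with 1 library left out, an alternative chosen after seeing the data.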
